A study of Mus musculus with 4 samples.

Results

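Transfer RNA (tRNA) for aspartate, asparagine, histidine and tyrosine was followed in sperm small RNA, as the 4 amino acids whose tRNAs can carry queuosine. Members were taken by name from the tRNA class of both deposited tables, and 49 of 438 listed tRNA genes qualified. They comprised 16 genes of tRNA-Asp-GTC, 12 of tRNA-Asn-GTT, 10 of tRNA-His-GTG and 11 of tRNA-Tyr-GTA, and no other anticodon was listed for these amino acids. In these names the number after the anticodon marks a distinct mature sequence and the last number marks a gene copy. The libraries came from cauda epididymal sperm of adult C57BL/6 mice, 1 mouse per library, with 2 mice of the original cross and 2 of the extra cross to wildtype. The labels give no transgene, LoxP allele or Cre line for either cross, and they do not say which cross was susceptible to silencing of the LoxP site. Each replicate number has its own table, holding 1 library of each cross. Values are RPM, reads scaled by the authors, and the total behind this scale was not found. In original-cross replicate 1 a read was worth 1.58 RPM in the small RNA classes and 0.0603 RPM in the RefSeq class.

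Queuosine is a modified guanosine that tRNA-guanine transglycosylase inserts at the wobble base of the anticodon, using queuine that mammals obtain from diet and gut microbes. All 4 tRNAs have an anticodon of the form GTN, which reads codons ending in C or T in DNA letters. The tRNAs for aspartate and tyrosine receive an additional sugar on queuosine, mannose in the former and galactose in the latter, whereas those for asparagine and histidine do not. In mature sperm, tRNA is found largely as fragments, many of them from the 5′ end. The libraries counted reads assigned to tRNA genes and did not measure the modification.

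In the RefSeq annotation of GRCm38.p6, the assembly also called mm10, genes of these tRNAs lie partly in clusters. It lists 16 Asp-GTC genes, each 72 bp long, 5 of them on chromosome 1 between 171037029 and 171102442. A cluster on chromosome 3 holds 6 of 13 Asn-GTT genes (96322074 to 96497854) and 6 of 10 His-GTG genes (96410069 to 96500437). Of 10 Tyr-GTA genes 6 lie on chromosome 13 between 23425646 and 23467165, and their listed length is 86 to 93 bp, against 74 bp for Asn-GTT and 72 bp for His-GTG. RefSeq symbols do not pair with the gene names of the deposited tables, so no value below is tied to a position.

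The commonest microRNA value gave the worth of 1 read, from 0.238 to 1.58 RPM, which puts 632859 to 4205692 reads behind the 4 scales. The tRNA class held 34.1% and 61.7% of the RPM of the 5 small RNA classes in original-cross replicates 1 and 2, and 25.8% and 58.3% in the extra cross. Sperm transcripts were scarce, as 12 listed spermatid and sperm transcripts summed to 4.74 to 10.6 RPM per library and Prm3 was at 0. The sum of 4 spermatogenic microRNAs was 749 to 1923 RPM, mostly mir-34c at 707 to 1828 RPM. Of the others, mir-34b had 40.4 to 108 RPM, mir-449a 0.561 to 1.93 RPM and mir-449c 0 to 4.74 RPM. Markers of other cells were present. Summed microRNAs of the epididymal epithelium stood at 4394 and 2055 RPM in the original-cross mice against 10409 and 5315 in the extra-cross mice, and those of smooth muscle and stroma at 7913 and 5749 against 3022 and 4638 RPM. None of these microRNAs was at 0 in all libraries. In bulk RNA, fewer cells of a type and less RNA per cell cannot be told apart.

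Single genes often held fractions of a read, but the sums by anticodon did not. In each of the 16 combinations of tRNA type and library, the summed RPM lay within 0.0583 reads of a whole number of reads. Of sums that held between 20 and 10000 reads, 10 of 11 from these types and 41 of 138 (29.7%) from other anticodons were whole within 0.05 reads. Sums by anticodon are therefore given with their reads, which ranged from 55 for Asn-GTT in original-cross replicate 1 to 36850 for Asp-GTC in extra-cross replicate 2. Poisson intervals on these reads cover counting error only, since reads copied by PCR are not independent molecules.

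tRNA-His-GTG and tRNA-Asp-GTC were the abundant types and tRNA-Asn-GTT and tRNA-Tyr-GTA the scarce ones, but the order changed between the tables. Per base of RefSeq gene length, His-GTG had 186 RPM, Asp-GTC 40.6, Tyr-GTA 1.67 and Asn-GTT 1.17 in original-cross replicate 1. The order was the same in replicate 1 of the extra cross, at 125, 17.5, 1.58 and 1.08 RPM per base. Both replicate 2 libraries had the order Asp-GTC, His-GTG, Asn-GTT, Tyr-GTA, with 168, 124, 18.2 and 1.28 RPM per base in the original cross. In the extra cross these were 122, 99.0, 23.6 and 2.19 RPM per base. Among the 54 anticodons named in the tables, His-GTG ranked 9 and Asp-GTC 10 by mean RPM, behind Glu-CTC, Val-CAC and Lys-CTT at the head.

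**Figure D1:**
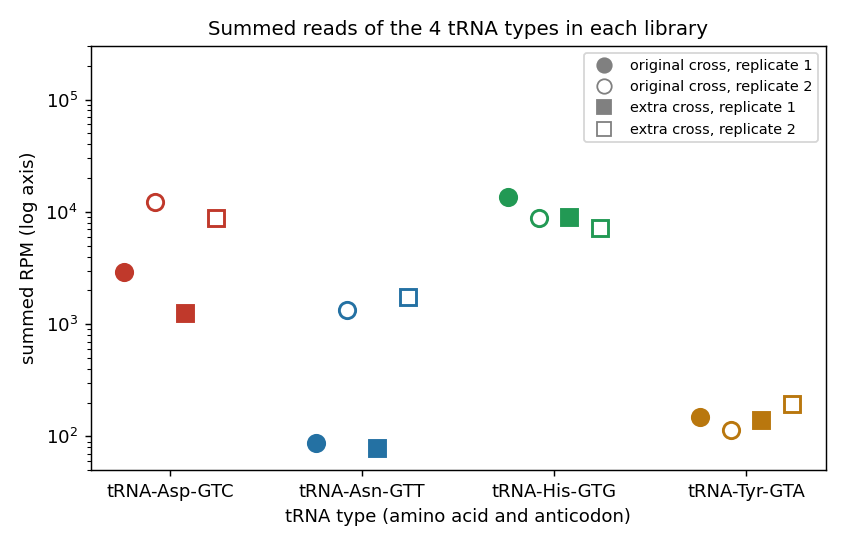
Summed RPM of the 4 tRNA types (log axis) in each library, with circles for the original cross, squares for the extra cross, filled symbols for replicate 1 and open symbols for replicate 2. Asp-GTC and Asn-GTT are separated by replicate number, with Asn-GTT at 86.9 and 79.6 RPM in the filled and at 1345 and 1749 RPM in the open symbols.

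tRNA-Asp-GTC, whose queuosine carries mannose, summed to 2920.1 and 12123 RPM in replicates 1 and 2 of the original cross, against 1257 and 8762 RPM in those of the extra cross. The extra-cross library was the lower one in each table, by 2.32-fold in replicate 1 and 1.38-fold in replicate 2, yet the 2 crosses overlapped because both replicate 2 libraries stood above both replicate 1 libraries. The log2 difference, extra minus original, was -0.84 ± 1.07 (SE, n = 2 per cross, limma adjusted p = 0.939). Without original-cross replicate 2 it was 0.18, and without extra-cross replicate 1 it was 0.56, where each omission leaves the crosses with unequal replicate numbers. The sum of the smooth muscle and stroma microRNAs was also lower in the extra cross, though mir-143, one of its 5 members, was highest in extra-cross replicate 2, and their part in the Asp-GTC values was not tested.

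The 13 copies tRNA-Asp-GTC-1-1 to tRNA-Asp-GTC-1-13 held one and the same value and together made up 85.5% to 95.4% of the Asp-GTC sum. Each copy stood at 202 and 890.0 RPM in the original-cross mice and at 82.6 and 635 in the extra-cross mice. The single gene tRNA-Asp-GTC-2-1 had 277 and 530.4 against 161 and 490.2 RPM, lower in the extra cross of each table as deposited, with a log2 difference of -0.45 that became 0.015 under median-ratio scaling. Its share of the Asp-GTC sum was 9.48% and 12.8% in the replicate 1 libraries and 4.37% and 5.59% in those of replicate 2. The remaining sequences were scarce and did not follow the copies of Asp-GTC-1. tRNA-Asp-GTC-4-1 had 12.8 and 20.6 against 18.2 and 17.5 RPM, on 8.12 to 73.5 divided reads per library. tRNA-Asp-GTC-3-1 stayed between 2.00 and 3.59 RPM, on 1.27 to 9.97 divided reads.

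tRNA-Asn-GTT, whose queuosine carries no sugar, summed to 86.9 and 1345 RPM in mice of the original cross, against 79.6 and 1749 RPM in mice of the extra cross. These values rest on 55, 2397, 124 and 7357 reads. In replicate 1 the 95% Poisson intervals of the 2 crosses overlapped, at 65.5 to 113 RPM in the original and 66.2 to 94.9 RPM in the extra cross. In replicate 2 the extra cross was higher, at 1710 to 1790 RPM against 1291 to 1400 RPM. The log2 difference was 0.13 ± 1.58 (SE, n = 2 per cross, limma adjusted p = 0.997), turned to -0.0073 when libraries were rescaled to the sum of the 5 classes, and was -1.84 without original-cross replicate 1 and -2.09 without extra-cross replicate 2. The crosses could not be distinguished for this tRNA. Replicate 2 stood above replicate 1 by 15.5-fold in the original and by 22.0-fold in the extra cross. Mouse and replicate number cannot be told apart in this difference.

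The 9 copies tRNA-Asn-GTT-3-1 to tRNA-Asn-GTT-3-9 held 97.8% to 99.8% of the Asn-GTT sum, each copy having 9.47 and 149 against 8.65 and 194 RPM. tRNA-Asn-GTT-1-1, tRNA-Asn-GTT-2-1 and tRNA-Asn-GTT-4-1 lay between 0.047 and 1.42 RPM in every library, below 10 RPM on average. In the replicate 2 library the Asn-GTT-3 copies were 15.8-fold higher than in the replicate 1 library of the original cross and 22.4-fold higher in the extra cross, whereas for tRNA-Asn-GTT-1-1 these ratios were 1.39 and 1.27. The latter rest on 0.548 to 4.69 divided reads per library.

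tRNA-His-GTG, which also carries queuosine without a sugar and is extended by a guanosine at its 5′ end after transcription, differed less between libraries than Asp-GTC and Asn-GTT. Its sum was 13420.1 and 8898 RPM in the original-cross mice, against 8972 and 7128 RPM in the extra-cross mice. As deposited, the extra-cross library of each table was lower, 1.496-fold in replicate 1 and 1.25-fold in replicate 2, but extra-cross replicate 1 lay marginally above original-cross replicate 2. The log2 difference of -0.45 ± 0.64 (SE, n = 2 per cross, limma adjusted p = 0.956) became 0.012 under median-ratio scaling, where the median over the 485 rows tested was higher by 0.50. The 8 copies tRNA-His-GTG-2-1 to tRNA-His-GTG-2-8 held 98.6% to 99.4% of the sum, each copy having 1666 and 1103 against 1114 and 879 RPM. The other sequences were low, and both were lower in the extra cross of replicate 1 and higher in that of replicate 2, with tRNA-His-GTG-1-1 at 29.9 and 21.6 against 19.4 and 23.1 RPM and tRNA-His-GTG-3-1 at 61.7 and 55.9 against 38.9 and 76.7 RPM.

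tRNA-Tyr-GTA, whose queuosine carries galactose and whose genes hold an intron, summed to 149 and 114 RPM in mice of the original cross, against 141 and 195 RPM in mice of the extra cross. These sums rest on 94, 204, 219 and 820 reads. The 95% Poisson intervals overlapped in replicate 1, at 120.0 to 182 RPM in the original and 123 to 160.5 RPM in the extra cross, and not in replicate 2, at 99.3 to 131 against 182 to 209 RPM. The log2 difference of the sum was 0.34 ± 0.65 (SE, n = 2 per cross, limma adjusted p = 0.994), was 0.80 under median-ratio scaling (adjusted p = 0.336) and lay between 0.11 (without extra-cross replicate 2) and 0.58 (without extra-cross replicate 1) with 1 library left out.

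Unlike the other types, Tyr-GTA was spread over several sequences rather than dominated by 1 set of copies. The gene tRNA-Tyr-GTA-6-1 stood at 23.7 and 27.5 RPM in the original-cross mice and at 35.3 and 71.8 in the extra-cross mice. These values rest on 15 to 302 reads, and both extra-cross libraries were higher. Members with such a separation numbered 1 as deposited, 4 under median-ratio scaling and 2 with the tRNA class scaled to its own sum. After rescaling to the sum of the 5 classes there were 0. As deposited, 4.47% of all features had both extra-cross libraries above both of the original cross, and this share was not counted under the other scalings. The log2 difference of tRNA-Tyr-GTA-6-1, 0.95 ± 0.51 (SE, n = 2 per cross), did not pass (unadjusted p = 0.118 and limma adjusted p = 0.662 across 760 features). It was 0.45 without extra-cross replicate 2 and 1.46 without extra-cross replicate 1. With all libraries under median-ratio scaling it was 1.40 (limma adjusted p = 0.399). This gene made up 15.96% and 24.0% of the Tyr-GTA sum in the original cross and 25.1% and 36.8% in the extra cross.

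The other tyrosine genes over the minimum overlapped between the crosses. tRNA-Tyr-GTA-3-1 had 29.0 and 18.1 against 26.5 and 27.7 RPM, and tRNA-Tyr-GTA-4-1 had 29.5 and 18.1 against 24.8 and 22.6 RPM. tRNA-Tyr-GTA-2-1 had 6.85 and 11.1 against 8.93 and 15.2 RPM, on 4.33 divided reads in original-cross replicate 1. Near-identical genes were told apart by few reads: tRNA-Tyr-GTA-1-3 exceeded its 4 equal copies by 1.0 read in original-cross replicate 1, and tRNA-Tyr-GTA-3-2 was 1.00 read below tRNA-Tyr-GTA-3-1 in extra-cross replicate 1. The 6 tyrosine genes under the minimum lay between 0 and 7.37 RPM.

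**Figure D2:**
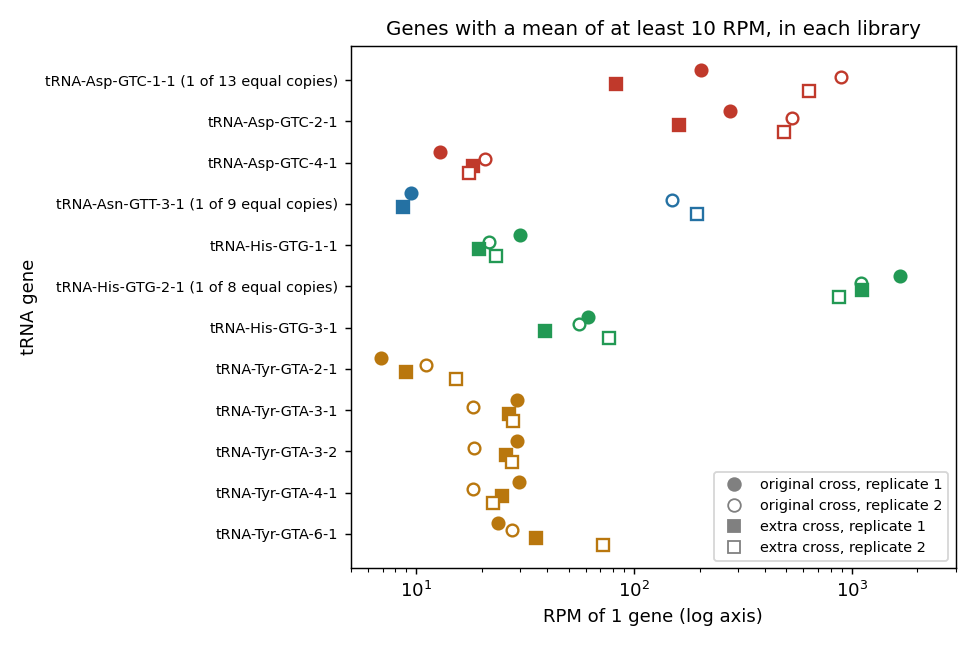
RPM of 1 gene (log axis) for each of the 12 distinct values among members with a mean of at least 10 RPM, with genes of equal value shown once. Symbols are as in the plot of summed RPM, and the Asp-GTC-1 and Asn-GTT-3 copies show the widest distance between filled and open symbols.

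Across the crosses no member passed the test with cross as the only term. A fit with a replicate block, in which some members passed, is given at the end. With all small RNA features in 1 fit, limma at an adjusted p of 0.05 called 0 of the 39 members that reached the minimum mean of 10 RPM, as did 0 of 760 features (0%), and at an unadjusted p below 0.05 these were 0 members and 112 features (14.7%). With tRNA genes summed by anticodon, 0 of the 4 sums and 0 of 501 rows (0%) passed. An unadjusted p below 0.05 was reached by 0 of the 4 sums, 0 of the 43 other anticodon sums and 107 of all rows (21.4%). The 39 members, of which 30 belong to 3 sets of equal copies, had a median log2 difference of -0.45 against -0.12 for all 760 features. As 22 of them were lower in the extra cross of both tables, their share of 56.4% stood beside 46.3% of all features and 43.1% of the other tRNA genes, and 21 of these 22 were copies of Asp-GTC-1 and His-GTG-2. With equal values counted once, 3 of 12 were lower in both tables, 2 were higher in both and 7 differed in direction. All features were not counted in this way, so these 12 values have no share to stand beside. Counted by gene, 2 of 39 (5.13%) were higher in both, against 19.9% of all features and 19.5% of the other tRNA genes. By gene, 15 of 39 (38.5%) differed in direction, against 33.8% of all features and 37.5% of the other tRNA genes. No member had both extra-cross libraries below both of the original cross, as 26.8% of all features and 13.1% of the other tRNA genes did. Median-ratio scaling moved the median of all features from -0.12 to 0.35 and that of the members to 0.0087. Under it 13 of the 39 (33.3%) were lower in both tables, beside 161 of 744 features (21.6%). The 15 members that were then higher in both are not read, since the matching share of all features was not counted. The 10 members below the minimum were not tested.

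**Figure D3:**
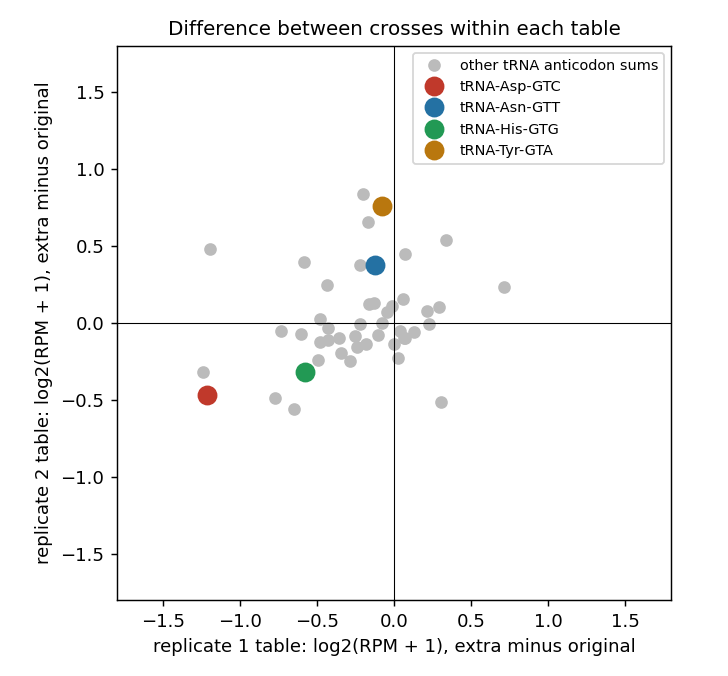
Difference in log2(RPM + 1), extra minus original, in the replicate 1 table (horizontal) and the replicate 2 table (vertical) for the 47 tRNA anticodon sums with a mean of at least 10 RPM. Asp-GTC (-1.22 and -0.47) and His-GTG (-0.58 and -0.32) lie in the lower left, and Asn-GTT (-0.13 and 0.38) and Tyr-GTA (-0.079 and 0.76) lie in the upper left.

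Replicate 2 libraries differed from replicate 1 libraries far more than the crosses did for 2 of the 4 types. Asn-GTT was 15.5-fold higher in replicate 2 of the original cross and 22.0-fold higher in replicate 2 of the extra cross, and Asp-GTC was 4.15-fold and 6.97-fold higher. For His-GTG these ratios were 0.663 and 0.794, and for Tyr-GTA 0.771 and 1.39. The median ratio over the 43 other tRNA anticodons was 1.23 in the original and 1.37 in the extra cross. The 4 types thus fell on different sides of this median, with Asn-GTT in rank 2 of 47 in each cross and Asp-GTC in ranks 5 and 4. Anticodons outside the members rose as well. Phe-GAA ranked 1 in both crosses (16.8-fold and 34.6-fold), and Ile-AAT (7.30 and 13.0) and Met-CAT (5.24 and 6.00) were also high. The share of the tRNA class also separated the replicate numbers. Blood microRNAs did so too, at 6520 and 11186 RPM in replicate 1 and 1229 and 1136 RPM in replicate 2. So did the whole microRNA class, at 275809 and 441544 RPM in replicate 1 and 117322 and 140437 RPM in replicate 2. The 3 listed blood transcripts did not, as their sums overlapped and lay between 2.996 and 5.865 RPM. The part of these classes and markers in the ratios was not tested.

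**Figure D4:**
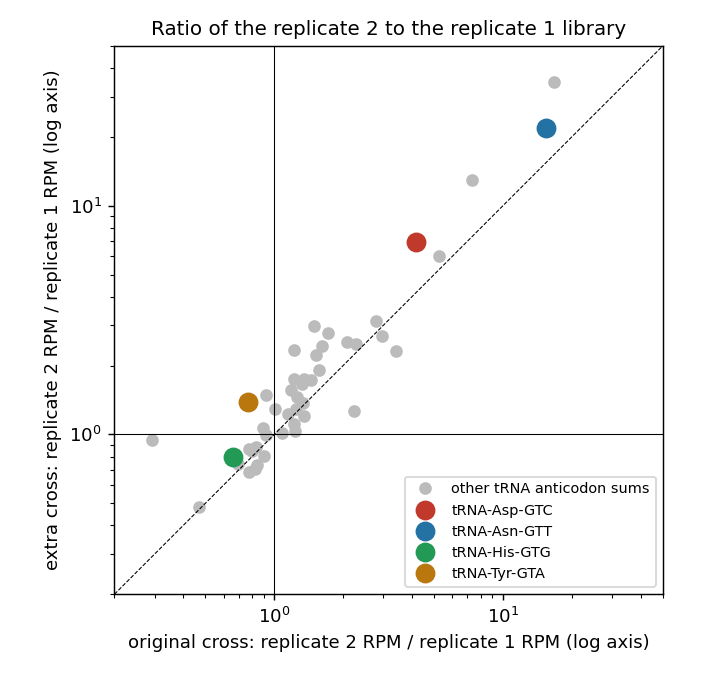
RPM of the replicate 2 library divided by that of the replicate 1 library in the original cross (horizontal) and the extra cross (vertical), both on log axes, for the 47 tRNA anticodon sums with a mean of at least 10 RPM. Asn-GTT (15.5 and 22.0) and Asp-GTC (4.15 and 6.97) lie far from the bulk of other anticodons. So do Phe-GAA (16.8 and 34.6), Ile-AAT (7.30 and 13.0) and Met-CAT (5.24 and 6.00), which are not members. His-GTG (0.663 and 0.794) lies below 1 in both crosses.

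The anticodons nearest to each type were found by the distance between centred log2 values over the 4 libraries. Asn-GTT was nearest to Phe-GAA (distance 0.49), which had 34.8 and 583 against 30.1 and 1042 RPM, then to Ile-AAT (0.94) and Met-CAT (1.75). Asp-GTC was nearest to Glu-CTC (1.13), Met-CAT (1.31) and Ile-AAT (1.38). For His-GTG the nearest were Ser-GCT (0.18), Pro-CGG (0.22) and Pro-TGG (0.26). For Tyr-GTA the nearest 3 were Sup-TTA, Ala-GGC and Cys-ACA, each at 0 in 3 libraries and at most 0.238 RPM in the last. The search set no minimum RPM, so these 3 show no likeness. Likeness of Tyr-GTA to anticodons over 10 RPM was not read.

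As a share of all tRNA reads, the 4 types together made up 8.74% and 7.32% in the original cross and 6.04% and 6.13% in the extra cross. The crosses did not overlap, with means of 8.03% ± 1.00 and 6.08% ± 0.061 (SD, n = 2), and the two-sided exact permutation p of 0.333 is the smallest that 2 against 2 libraries allow (adjusted p = 0.667 over 5 shares). Within this sum the composition differed by the replicate number: His-GTG held 7.08% and 5.19% in the replicate 1 libraries and 2.90% and 2.45% in those of replicate 2, while Asp-GTC held 1.54% and 0.726% and then 3.95% and 3.01%. Asn-GTT held 0.046% in both replicate 1 libraries and 0.438% and 0.601% in those of replicate 2, and Tyr-GTA stayed between 0.037% and 0.081%. Each of the 4 single shares overlapped between the crosses (exact permutation p = 0.667, adjusted p = 0.667). As a share of the 5 small RNA classes the sum of the 4 types overlapped as well, with 2.98% and 4.52% in the original and 1.56% and 3.57% in the extra cross. The sum of the epididymal epithelium microRNAs was higher and that of smooth muscle and stroma lower in both extra-cross libraries, while single ones such as mir-200b and mir-143 overlapped between the crosses, and their part in the share was not tested.

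**Figure D5:**
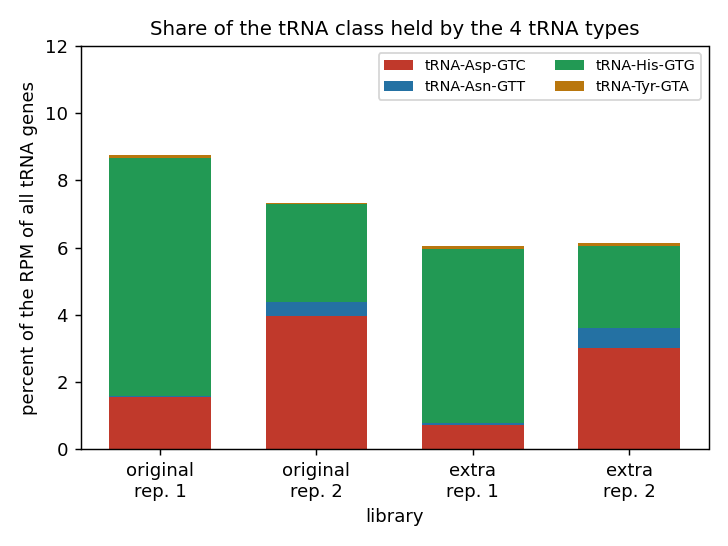
Share of the RPM of all tRNA genes held by each of the 4 tRNA types in each library, as stacked bars starting at 0. The total is 8.74% and 7.32% in the original cross and 6.04% and 6.13% in the extra cross, and the red Asp-GTC part is the larger one in the replicate 2 libraries.

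Transcripts of the queuosine pathway and of tRNA processing were nearly undetected in these small RNA libraries. Of 27 listed genes 22 had reads, and 1, Rnh1, which encodes the ribonuclease inhibitor that binds angiogenin, reached a mean of 10 RPM. It had 17.4 and 6.73 against 12.8 and 5.47 RPM, a log2 difference of -0.33 ± 0.60 (SE, n = 2 per cross, limma adjusted p = 0.708 across 477 genes). In that fit 0 of 477 genes (0%) passed and 114 (23.9%) had an unadjusted p below 0.05, and Rnh1, the only listed gene tested, was not among those that passed. Qtrt1 and Qtrt2, the subunits of the transglycosylase, had means of 0.496 and 0.246 RPM. The remaining genes with reads had means from 0.089 to 4.76 RPM, the highest being Rtcb, the ligase that joins the exons of intron-containing tRNAs.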

How the data were processed

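Small RNA of sperm from 4 mice was sequenced on 1 lane after gel size selection and TruSeq small RNA library preparation, per the labels' protocols. Tools named in the submitters' processing notes are CASAVA 1.8.2 and Bowtie 1.1.2, and the build is mm10. The authors deposited RPM, per the file headers. Trimming, annotation, the total behind RPM and the rule for reads with several matches were not found in the labels or headers used here. Features listed in 1 table only were given 0 in the other. Between 28.6% and 36.3% of single values of at most 20 reads were whole (tolerance 0.02 reads), which allowed no count model. On the scale log2(RPM + 1), without features whose mean was under 10 RPM, limma 3.58.1 (R 4.3.3) was fitted with cross as the only term, a variance trend and Benjamini-Hochberg adjustment. Fold changes on this scale understate those of low features. RefSeq transcripts (55917 of 68434 matched to a symbol) were fitted separately. In original-cross replicate 1 their 1-read value (0.0603 RPM) was 26.2 times below that of the other classes, and those values were multiplied by this ratio. P-values measure the spread between the 2 libraries of each cross, moderated over all rows tested. The 2 libraries of a cross differ in mouse and in replicate number at once. Named were all members over the minimum, the most abundant of each anticodon, the 3 nearest and 3 most abundant other anticodons, and pathway genes over the minimum. Qtrt1, Qtrt2 and Rtcb were named in addition, after their values were seen. Members and lists were chosen with earlier results of these data known. Sums and shares were computed in Python 3.11.15 (pandas 2.3.3).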

Additional observations from a re-analysis of the deposited data

How the results depend on the processing

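Depth limits the scarce tRNAs, with a single read worth 1.58 RPM in original-cross replicate 1. Pseudocounts of 0.1 and 5 RPM, a minimum of 0 or 50 RPM, no variance trend and scaling of the tRNA class to its own sum kept every direction and call of the 4 sums. Under median-ratio scaling the log2 differences became 0.012 for His-GTG, 0.015 for tRNA-Asp-GTC-2-1, 0.19 for tRNA-His-GTG-1-1, 0.0087 for tRNA-His-GTG-2-1 and 0.35 for tRNA-His-GTG-3-1. Rescaled to the sum of the 5 classes, they became -0.0073 for Asn-GTT, -0.0060 for tRNA-Asp-GTC-4-1 and -0.099 for tRNA-Tyr-GTA-4-1. With this rescaling 99 of 501 rows passed in the fit with anticodon sums, and 0 of the 4 sums did (median shift of all rows -0.13). The cause was not tested.

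With 1 library left out, the lone library of a cross was assumed to vary like the others, and the crosses were left with unequal replicate numbers. The log2 difference then ranged from -2.24 to 0.56 for Asp-GTC, from -2.09 to 2.35 for Asn-GTT, from -0.75 to -0.15 for His-GTG and from 0.11 to 0.58 for Tyr-GTA. For single genes it ranged from -2.35 to 0.58 (tRNA-Asp-GTC-1-1), from -1.25 to 0.35 (tRNA-Asp-GTC-2-1), from -0.20 to 0.44 (tRNA-Asp-GTC-4-1), from -2.04 to 2.30 (tRNA-Asn-GTT-3-1), from -0.58 to 0.38 (tRNA-His-GTG-3-1), from -0.093 to 0.55 (tRNA-Tyr-GTA-3-1), from -0.11 to 0.52 (tRNA-Tyr-GTA-3-2) from -0.31 to 0.37 (tRNA-Tyr-GTA-4-1) and from 0.45 to 1.46 (tRNA-Tyr-GTA-6-1). The difference in share ranged from -2.08 to 0.33 percentage points for Asp-GTC, from -0.20 to 0.36 for Asn-GTT, from -3.26 to 0.92 for His-GTG, from -0.0042 to 0.037 for Tyr-GTA and from -2.66 to -1.24 for the 4 together. The number of rows past the threshold in the fit with anticodon sums ranged from 0 to 62, the latter without original-cross replicate 2. No member was among them.

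Nothing in the labels says that equal replicate numbers mark pairs, although the differences between replicates 2 and 1 in the 2 crosses correlated at 0.87 over 760 features. With a replicate block, 171 of 760 single features (22.5%) passed limma, 14 of them members (the 13 equal Asp-GTC-1 copies and tRNA-Tyr-GTA-6-1), and 145 rows of the fit with anticodon sums, 1 of them a member. Asp-GTC then had a log2 difference of -0.84 (limma adjusted p = 0.0060), tRNA-Asp-GTC-1-1 -0.88 (adjusted p = 0.016) and tRNA-Tyr-GTA-6-1 0.95 (adjusted p = 0.042), while His-GTG (adjusted p = 0.162), Asn-GTT and Tyr-GTA did not pass. With RefSeq values as deposited, 0 pathway genes reached the minimum.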
